A study of Mus musculus with 7 samples.

Results

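The proximal B cell receptor signalling genes code for the receptor's signalling chains and for the kinases, adaptor, exchange factor and lipase that act first once antigen is bound: Cd79a, Cd79b, Lyn, Blk, Syk, Blnk, Vav1, Btk and Plcg2. They were listed by name for their place in the pathway and not by a rule on their values, though earlier results of these data were known. They are 9 of the 48795 gene identifiers in the count table; all 9 had a row, and all 9 were among the 11618 genes that passed the filter on low counts. RNA was sequenced in bulk from B cells of the germinal centre light zone, sorted from spleens of mice that had received sheep red blood cells (SRBCs) by vein 10 days earlier. The groups were 3 samples of genotype MIZ1KO, whose titles carry MizFF, and 4 of genotype Control, whose titles carry eYFP; the immunisation and the day were common to both. No source used here gives the recombinase, its promoter, or the animals' age and strain. The labels do not tie a sample to an animal of its own; p-values therefore measure only how far these samples spread, and that spread may be technical. The single comparison, MIZ1KO against Control, asks how the transcripts of these cells differ when MIZ1, a transcription factor encoded by Zbtb17, is deficient.

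In a B cell, membrane immunoglobulin binds antigen but has only a very short tail inside the cell, so signals leave through the paired chains Ig-alpha and Ig-beta, the products of Cd79a and Cd79b. Src-family kinases such as LYN and BLK phosphorylate tyrosine motifs in those tails, SYK docks there and phosphorylates the adaptor BLNK, and BLNK gathers BTK, VAV1 and PLCG2, which opens the calcium, protein kinase C and Ras arms. In the light zone of a germinal centre the receptor both signals and takes up antigen for display to T cells, and cells are selected there by the outcome.

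Transcripts of Cd79a rose in MIZ1KO by 1.82-fold, and it was the 1 gene of the 9 to pass an adjusted p of 0.05 in edgeR's quasi-likelihood test. Cd79b, coding for its partner chain, had a 1.74-fold higher fitted level and an adjusted p of 0.0556 in the same test. The fitted log2 fold changes of all 9 genes lay above 0, from 0.07 for Vav1 to 0.86 for Cd79a, with a median of 0.41 against -0.03 over all genes tested and 0.04 over the 4321 protein-coding genes with a mean of at least 20 CPM, where CPM stands for counts scaled to a library of 1e6. None was called lower, 4 had an unadjusted p under 0.05, and 6 (Cd79a, Cd79b, Lyn, Blk, Btk and Plcg2) had every MIZ1KO library above every Control library. Of all genes tested, 1.90% were called higher, 4.05% were called lower, 47.7% lay above 0, 9.92% lay above 0 with an unadjusted p under 0.05 and 8.74% had every MIZ1KO library above every Control library. Among the protein-coding genes of at least 20 CPM, 3.38% were called higher, 54.4% lay above 0, 14.7% lay above 0 with an unadjusted p under 0.05 and 13.1% had every MIZ1KO library above every Control library. In bulk RNA a change in the number of cells of a type and a change in RNA per cell cannot be told apart.

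**Figure D1:**
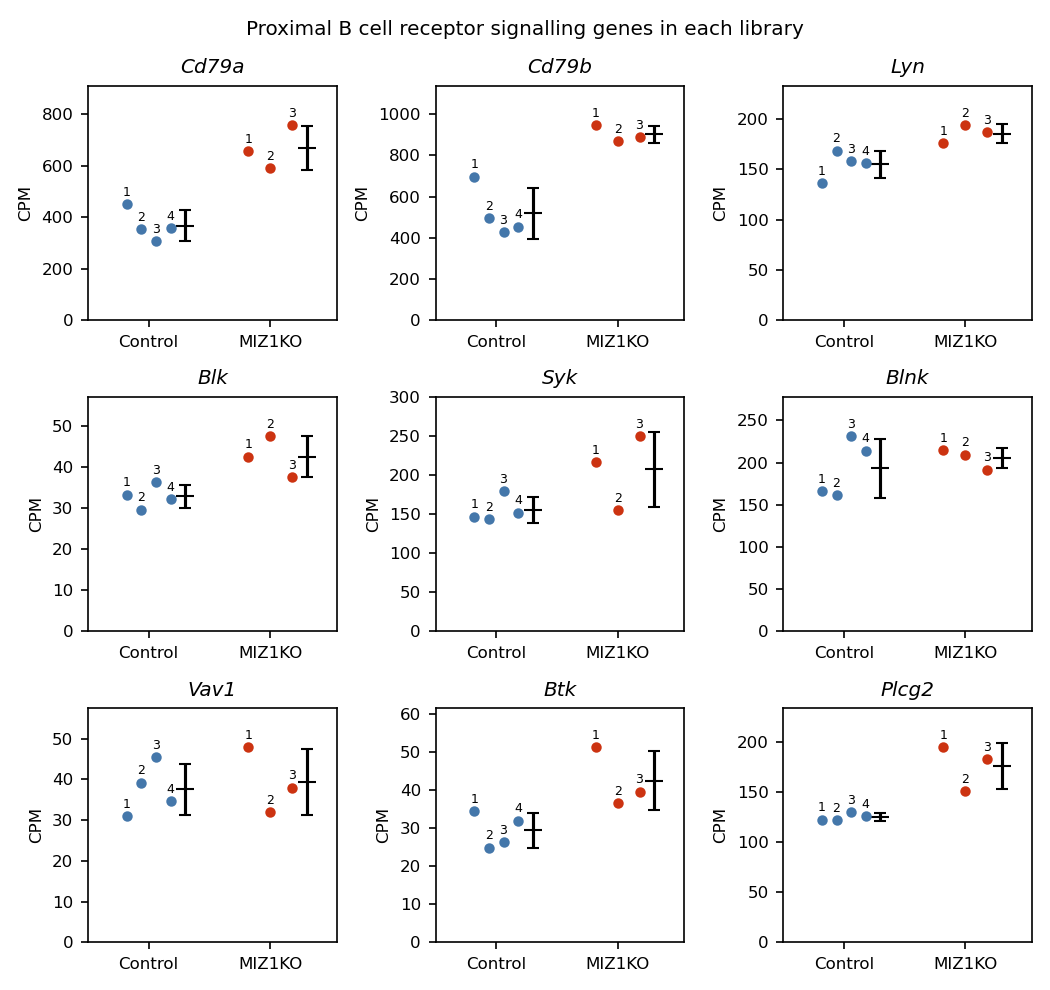
Level of each of the 9 genes in every library, in CPM on axes that start at 0. Numbered points are replicates (blue Control, red MIZ1KO), and the bar beside each group is the mean with 1 SD; the red points of Cd79a and Cd79b lie clear of the blue ones, while those of Blnk and Vav1 lie among them.

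The libraries held 6896643 to 9482418 estimated counts, of which 46.4% to 56.1% lay in ribosomal RNA, leaving 3087979 to 5084984. Ribosomal RNA here and below means the annotated ribosomal RNA classes, mitochondrial ones among them, and Gm26917, which was added by name. Zbtb17 measured 5.16, 3.70 and 4.50 CPM in the MIZ1KO libraries and 3.15, 3.42, 3.15 and 7.02 CPM in the Control libraries, from 22 to 70 counts each. These groups overlapped, with a log2 fold change of 0.03 ± 0.46 (SE) and an adjusted p of 0.975 in edgeR; the counts cover the whole gene, so they do not check a deletion of part of it. The labelled cell type was checked by markers: the summed level of 10 germinal centre B cell genes was 1110 to 1231 CPM in MIZ1KO and 1200 to 1483 in Control, and that of 12 light zone genes was 957 to 1065 and 991 to 1220 CPM. Bcl6, which specifies germinal centre B cells, measured 236 to 297 CPM in MIZ1KO and 210 to 226 CPM in Control. Of the 10 germinal centre genes 6 lay above 0, with a median log2 fold change of 0.10. Of the 12 light zone genes 8 lay below 0, with a median of -0.15. Without overlap between the groups, Bcl6, Mef2b and Nfkbia were higher in MIZ1KO and Fas, Mybl1, Cd86, Slamf1 and Cd69 lower. Every MIZ1KO library lay above every Control library for 8.74% of all genes tested and 13.1% of protein-coding genes of at least 20 CPM. The share for the other direction is not given here, so the lower genes have no background to be read against. Of the germinal centre and light zone lists, Rgs13 and Cd69 were called lower in MIZ1KO, as were 4.05% of all genes tested. Marker lists of naive or follicular B cells, plasma cells and red cells overlapped between the groups in summed level. The dark zone holds dividing germinal centre cells and lies outside the sorted zone. The 10 genes listed for it summed to 540 to 594 CPM in MIZ1KO and 445 to 559 CPM in Control. On the log2 scale 8 lay above 0 and the median was 0.32. None was called, and the smallest adjusted p was 0.0638 in edgeR, for Plk1. The largest values were those of Plk1 (0.93), Ccnb2 (0.60) and Cdc20 (0.57). Foxo1 was at 0.006, and the 2 genes below 0 were Cxcr4 (-0.14) and Gcsam (-0.13). The list leaned the way of the 9 genes, but not all of its members did. The part of dark zone cells or of dividing cells in the values of the 9 genes was not tested. The 12 T cell genes summed to 44.9 to 53.9 CPM in MIZ1KO and 27.3 to 33.9 CPM in Control, most of it from Lck, and Cd3e ranged from 0.645 to 8.37 and from 0 to 0.401 CPM. The 12 myeloid genes summed to 75.8 to 129 and 49.6 to 82.4 CPM, with Itgam and Adgre1 at or near 0 and Fcgr1 at 0 in all 7 libraries. Only 5 of them were tested. All 5 lay above 0 and none was called, the median being 0.62 on the log2 scale. Lyz2 was at 1.68 (adjusted p = 0.0712 in edgeR), from 2.04, 13.5 and 16.4 CPM in MIZ1KO and 2.75 to 3.54 CPM in Control. Csf1r was at 0.66, Cst3 at 0.62, Mpeg1 at 0.39 and Cd68 at 0.10. Transcripts of the TEC class, unspliced models of uncertain status in the annotation, took, of counts outside ribosomal RNA, 0.544% to 0.923% in MIZ1KO and 1.02% to 2.58% in Control, and Malat1, a nuclear RNA, 0.256% to 0.490% and 0.687% to 1.52%.

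The receptor chains had the highest levels of the 9 genes and, as fitted here, the largest fold changes. That ranking held in 20 of 21 alternatives and was lost with the TEC share as a covariate, where Syk was largest at a log2 fold change of 0.78. The TEC share itself did not overlap between the groups. A fit with this covariate, here and below, therefore cannot cleanly separate its part from that of genotype. Cd79a codes for Ig-alpha, which carries a tyrosine activation motif on its tail and is needed to bring immunoglobulin to the cell surface. It lies at chr7:24897381-24902197 on the forward strand (GRCm38, gene ENSMUSG00000003379) with 5 exon blocks that sum to 1457 bases. The MIZ1KO libraries held 658, 591 and 759 CPM of Cd79a, and the Control libraries 452, 355, 307 and 358 CPM. Every MIZ1KO library was above the highest Control library, replicate 1, and MIZ1KO replicate 2 was the nearest to it. The means were 669 ± 84.2 CPM (SD, n = 3) and 368 ± 60.8 CPM (SD, n = 4). The log2 fold change was 0.86 ± 0.22 (SE), with a 95% interval of 0.39 to 1.33, and the adjusted p was 0.0333 in edgeR. Between 2282 and 6122 counts stood behind each value, so counting error was small beside the spread between libraries.

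Cd79b codes for Ig-beta, the partner of Ig-alpha in the signalling pair. The gene (ENSMUSG00000040592) is on the reverse strand at chr11:106311341-106314762, with 1431 exonic bases. Its levels were 946, 869 and 888 CPM in MIZ1KO and 697, 495, 427 and 454 CPM in Control. The 3 MIZ1KO libraries were close to each other and above all Control libraries, of which replicate 1 was again the highest. The means were 901 ± 40.2 CPM (SD, n = 3) and 518 ± 122 CPM (SD, n = 4). The log2 fold change of 0.80 ± 0.24 (SE), with a 95% interval of 0.30 to 1.30, did not pass in edgeR at an adjusted p of 0.0556. On the authors' deposited log2 values, where the differences were smaller, both chains passed in limma, with differences of 0.64 for Cd79a (adjusted p = 0.0322) and 0.61 for Cd79b (adjusted p = 0.0483).

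The call of each chain turned on settings and on single libraries, while the direction did not in any of the 21 alternatives. The Cd79a call ended in 7 of them. Among these, leaving out 1 library ended it for Control replicate 2 (adjusted p = 0.0999 in edgeR), Control replicate 4 (0.0946), MIZ1KO replicate 1 (0.129) or MIZ1KO replicate 3 (0.116). A required fold change above 1.2 ended it too (0.0716), and so did the TEC share as a covariate, with a log2 fold change of 0.61 and an adjusted p of 0.283. Cd79b passed in 9 of the 21, among them DESeq2 (adjusted p = 0.00233) and the fit without Control replicate 1 (0.00743 in edgeR), and with the TEC share as a covariate its log2 fold change was 0.26 (adjusted p = 0.693 in edgeR). Within Control, Cd79a and Cd79b were highest in replicate 1, where the TEC share was lowest, and lowest in replicate 3, where it was highest. Within MIZ1KO, Cd79a was highest in replicate 3, which had the highest TEC share of that group, and Cd79b in replicate 1, which had the lowest. The summed T cell markers were also higher in MIZ1KO without overlap, with Cd3e at or near 0 in Control, and their part in the result was not tested.

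**Figure D2:**
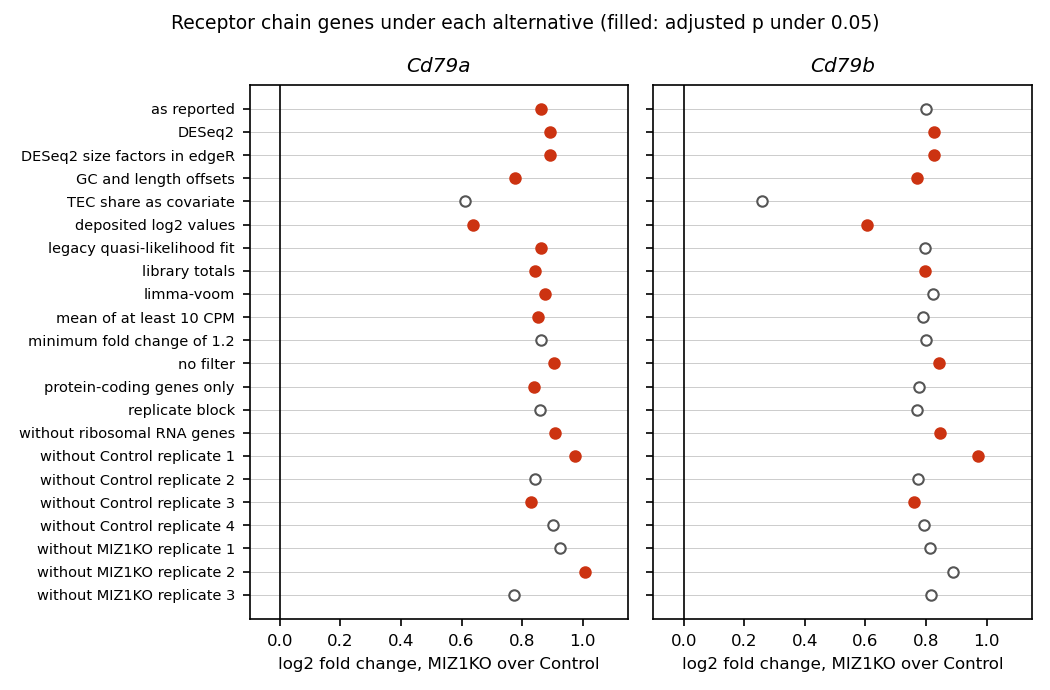
Log2 fold change of Cd79a (left) and Cd79b (right), MIZ1KO over Control, as reported and under 21 alternatives. Filled red points have an adjusted p under 0.05; all points lie right of 0, and the smallest value of Cd79b, 0.26, came with the TEC share as a covariate.

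Both chains are made in a fixed pairing in the receptor, and their transcripts kept a like ratio in the groups. Per exonic length (FPKM, the CPM value per kilobase of exon), the ratio of Cd79a to Cd79b was 0.683, 0.669 and 0.839 in MIZ1KO and 0.637, 0.704, 0.706 and 0.774 in Control. The groups overlapped, with means of 0.730 ± 0.0946 (SD, n = 3) and 0.705 ± 0.0560 (SD, n = 4). The ratio of Cd79a to Ighm, the heavy chain constant gene of IgM with which the pair assembles, was 0.247 ± 0.0202 (SD, n = 3) and 0.216 ± 0.0233 (SD, n = 4), and that of Cd79b to Ighm 0.341 ± 0.0298 and 0.309 ± 0.0551. Both of these ratios overlapped between the groups as well.

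The stretch before the Cd79a start is shown because this was the 1 called gene. The sequence comes from the RefSeq promoter table for GRCm38.p6, which holds 250 bases before to 50 after each start for 6 of the 9 genes and has no entry for Cd79b, Lyn and Blk. It covers chr7:24897247-24897380, forward strand, the 134 bases that lie before the first annotated exon; capitals, where present in the sequences of this and later paragraphs, mark a match to a searched motif.
Cd79a: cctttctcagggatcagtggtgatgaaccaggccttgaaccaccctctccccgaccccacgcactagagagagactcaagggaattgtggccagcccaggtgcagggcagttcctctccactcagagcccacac
The motifs searched on both strands were CACGTG (the E-box bound by MYC), ATCGAT (a core described for MIZ1), CCCNNGGG (the core of EBF1, a B lineage factor) and ATGCAAAT (the octamer bound by OCT factors), and they overlapped at no match in these windows. Of 32817 promoter windows of 300 bases, 7.15% held CACGTG, 0.926% ATCGAT, 13.7% CCCNNGGG and 1.74% ATGCAAAT. The windows of Cd79a, Syk and Btk held none of them, which says only that these letters are not there. Only exact matches were searched, so a site that departs from the letters is not marked. The Cd79a stretch above holds ctcaaggg, which differs from CCCNNGGG by 1 letter. The ATCGAT core was in none of the 7 windows of the 6 genes.

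Lyn and Blk, the Src-family kinases that phosphorylate the receptor tails, had higher fitted levels in MIZ1KO that did not pass the test. LYN also has an inhibitory role, since it phosphorylates the tails of inhibitory receptors such as CD22. Lyn (chr4:3678115-3813122, forward strand) measured 176, 194 and 186 CPM in MIZ1KO and 136, 168, 158 and 156 CPM in Control. The groups did not overlap, but the lowest MIZ1KO and the highest Control library were close. The means were 185 ± 9.02 CPM (SD, n = 3) and 155 ± 13.6 CPM (SD, n = 4), and the log2 fold change was 0.26, with a 95% interval of -0.13 to 0.66 and an adjusted p of 0.416 in edgeR. Lyn shares 248 exonic bases with Gm26857, a long non-coding model on the opposite strand, and no source used here gives the strand setting of the counting, so a small part of its counts is uncertain.

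Blk, a kinase largely restricted to B cells (chr14:63372836-63417037, reverse strand), measured 42.4, 47.5 and 37.5 CPM in MIZ1KO and 33.2, 29.6, 36.2 and 32.2 CPM in Control. MIZ1KO replicate 3 was only just above Control replicate 3, and the groups did not overlap. The log2 fold change was 0.38, with a 95% interval of -0.07 to 0.82 and an adjusted p of 0.286 in edgeR. The ratio of Lyn to Blk per length was 2.91 ± 0.330 (SD, n = 3) and 3.15 ± 0.467 (SD, n = 4), and it overlapped between the groups.

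Syk codes for the kinase that binds the doubly phosphorylated motifs of the receptor tails and passes the signal on. At chr13:52583173-52648792, forward strand, it measured 217, 156 and 250 CPM in MIZ1KO and 147, 144, 180 and 152 CPM in Control. The groups overlapped, because MIZ1KO replicate 2 lay below Control replicate 3 and near the Control mean. The means were 208 ± 48.1 CPM (SD, n = 3) and 156 ± 16.3 CPM (SD, n = 4). In edgeR the log2 fold change of 0.41, with a 95% interval of -0.02 to 0.85, did not pass (adjusted p = 0.229).

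Blnk and Vav1 had the smallest differences as fitted here, but with GC and length offsets Blnk, at 0.31, was above Syk, at 0.15, and with the TEC share as a covariate it was at 0.42. BLNK is the scaffold on which SYK, BTK and PLCG2 meet, and Blnk (chr19:40928927-40994535, reverse strand) measured 215, 209 and 192 CPM in MIZ1KO and 166, 161, 231 and 214 CPM in Control. The MIZ1KO libraries fell inside the Control range, where replicates 1 and 2 were low and replicates 3 and 4 high. The log2 fold change was 0.09, with a 95% interval of -0.34 to 0.52 and an adjusted p of 0.836 in edgeR. VAV1 is a guanine nucleotide exchange factor for RAC, and Vav1 (chr17:57279100-57328031, forward strand) measured 47.9, 32.0 and 38.0 CPM in MIZ1KO and 31.0, 39.2, 45.4 and 34.6 CPM in Control. These libraries were intermixed, with the highest value in MIZ1KO and the lowest in Control. The log2 fold change was 0.07, with a 95% interval of -0.42 to 0.55 and an adjusted p of 0.892 in edgeR, and it changed sign in 3 of the 21 alternatives. The intervals leave room for a difference of about the size fitted for Btk and Plcg2 in either gene, so these values do not show that the levels were equal.

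The Blnk and Vav1 starts are shown since each holds a match to a motif of a B lineage factor although neither gene passed the test. For Blnk the 30 bases around an octamer match, at chr19:40994333-40994362 on the reverse strand, lie inside an exon of a longer annotated transcript, and the match itself runs from 130 to 123 bases before the RefSeq start. For Vav1 the 250 bases before the start, chr17:57278850-57279099 on the forward strand, hold a match to CCCNNGGG from 39 to 32 bases before it.
Blnk: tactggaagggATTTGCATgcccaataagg
Vav1: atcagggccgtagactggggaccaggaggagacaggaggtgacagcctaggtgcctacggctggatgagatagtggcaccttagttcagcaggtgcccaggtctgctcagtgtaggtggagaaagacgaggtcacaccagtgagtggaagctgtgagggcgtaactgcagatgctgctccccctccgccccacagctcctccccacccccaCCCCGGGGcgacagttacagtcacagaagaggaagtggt
A match is a description of the letters and no evidence that a factor was bound in these cells.

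Btk and Plcg2, the kinase and the lipase at the end of the proximal chain, were next after the receptor chains in fitted fold change, a ranking that was lost in 4 of 21 alternatives. With GC and length offsets Plcg2 was at 0.24 on the log2 scale, below Lyn at 0.49, and with the TEC share as a covariate Btk was the lowest of the 9 at 0.17. Without Control replicate 3 Syk, at 0.53, was above Btk, at 0.52, and without MIZ1KO replicate 1 Blk, at 0.43, was above Btk, at 0.41. BTK phosphorylates PLCG2, which cuts a membrane lipid into the messengers that release calcium and activate protein kinase C. Btk (chrX:134542336-134583570, reverse strand) measured 51.3, 36.5 and 39.6 CPM in MIZ1KO and 34.5, 24.9, 26.4 and 32.0 CPM in Control. All MIZ1KO libraries were above all Control libraries, by a narrow margin between MIZ1KO replicate 2 and Control replicate 1. The means were 42.4 ± 7.80 CPM (SD, n = 3) and 29.4 ± 4.55 CPM (SD, n = 4), and the log2 fold change was 0.52, with a 95% interval of 0.05 to 1.00 and an adjusted p of 0.165 in edgeR.

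Plcg2 (chr8:117498291-117635142, forward strand) measured 195, 151 and 182 CPM in MIZ1KO and 122, 122, 130 and 126 CPM in Control. The Control libraries were tightly grouped and every MIZ1KO library lay above them. The means were 176 ± 22.7 CPM (SD, n = 3) and 125 ± 3.62 CPM (SD, n = 4). Its log2 fold change of 0.49, with a 95% interval of 0.10 to 0.88, did not pass after adjustment in edgeR (adjusted p = 0.115). Lyn, Blk, Syk, Blnk, Vav1, Btk and Plcg2 passed in none of the 21 alternatives. The 250 bases before the Plcg2 start, chr8:117498025-117498274 on the forward strand, are shown because they hold the 1 E-box among the 7 windows, from 20 to 15 bases before the RefSeq start.
Plcg2: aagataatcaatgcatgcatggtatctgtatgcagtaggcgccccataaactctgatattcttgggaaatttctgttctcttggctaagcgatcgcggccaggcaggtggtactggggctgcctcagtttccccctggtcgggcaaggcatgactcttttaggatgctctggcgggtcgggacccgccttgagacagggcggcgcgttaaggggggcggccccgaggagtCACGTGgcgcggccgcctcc

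**Figure D3:**
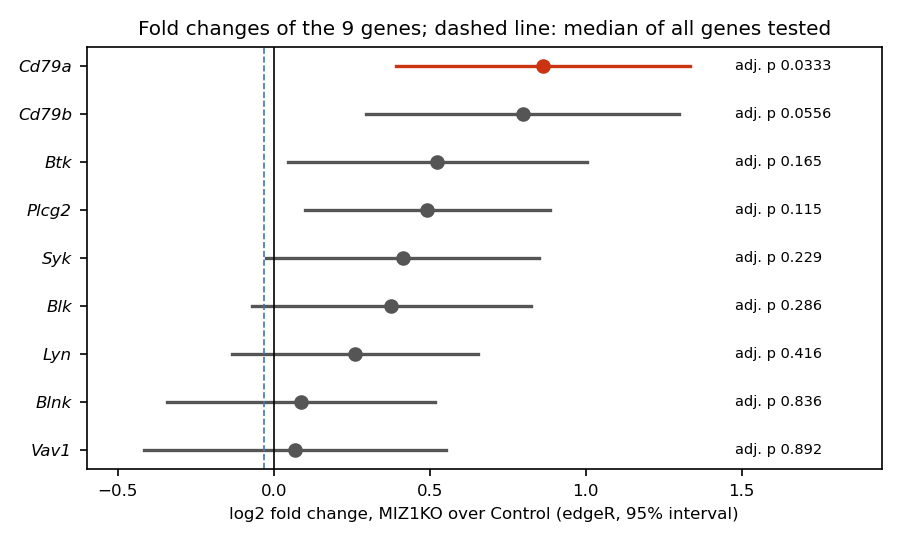
Fitted log2 fold changes of the 9 genes, MIZ1KO over Control, with 95% intervals from edgeR; the vertical black line is 0 and the dashed line the median of all genes tested, -0.03. Only the interval of Cd79a (red) belongs to an adjusted p under 0.05, and those of Cd79b, Btk and Plcg2 also lie above 0.

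Per length, the receptor chains stood far above the other genes. In Control the levels were 362 ± 85.6 FPKM (SD, n = 4) for Cd79b and 252 ± 41.8 FPKM for Cd79a, then 38.0 ± 3.35 for Lyn, 32.2 ± 5.82 for Blnk and 29.1 ± 0.841 for Plcg2. Lower still were Syk at 16.6 ± 1.74 FPKM, Blk at 12.2 ± 1.02, Vav1 at 10.2 ± 1.69 and Btk at 9.35 ± 1.44. Between neighbours in this order the Control libraries overlapped for Cd79b and Cd79a, Lyn and Blnk, Blnk and Plcg2, Blk and Vav1, and Vav1 and Btk, and they did not for Cd79a and Lyn, Plcg2 and Syk, or Syk and Blk. In MIZ1KO the levels were 629 ± 28.1 FPKM (SD, n = 3) for Cd79b, 459 ± 57.8 for Cd79a, 45.5 ± 2.21 for Lyn, 40.9 ± 5.28 for Plcg2 and 34.3 ± 2.01 for Blnk. The order differed from that of Control only in that Plcg2 stood above Blnk and Btk, at 13.5 ± 2.48 FPKM, above Vav1, at 10.7 ± 2.19. Syk was at 22.2 ± 5.13 and Blk at 15.7 ± 1.85 FPKM.

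Seen by library, the 9 genes together summed to 2285 to 2572 CPM in MIZ1KO and 1539 to 1818 CPM in Control. The receptor chains made up 1460 to 1646 CPM of this in MIZ1KO and 733 to 1149 CPM in Control. The median over the genes of log2 level over the Control mean was 0.48, 0.31 and 0.43 in the MIZ1KO libraries and -0.03, -0.07, 0.05 and -0.03 in the Control libraries. MIZ1KO replicate 1 had all 9 genes above the Control mean, replicate 2 had 7 and replicate 3 had 8, against 4, 2, 6 and 4 in Control. Control replicate 2 was the lowest library for 5 of the genes, and MIZ1KO replicate 1 the highest for 4. The genes did not follow the same order of libraries: the Pearson r of log2 CPM with Cd79a over the 7 libraries was 0.96 for Cd79b, 0.87 for Plcg2, 0.85 for Btk, 0.68 for Syk, 0.65 for Blk and 0.60 for Lyn, but 0.00 for Blnk and -0.04 for Vav1. These r values include the difference between the groups and are a description only.

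Of 4320 other protein-coding genes with at least 20 CPM on average, those most like Cd79a over the 7 libraries were Hist1h2bn (r = 0.998), Usf2 (0.997), H2afx (0.993), Cotl1 (0.993) and Osbp (0.992), and Cd79b came at rank 48. Hist1h2bn and H2afx code for histones, Usf2 for an E-box binding factor and Cotl1 for an actin binding protein. Those most like Cd79b were Cand1 (0.992), Lcp1 (0.988), H2-D1 (0.987), Prelid1 (0.987) and Cltc (0.986), with Cd79a at rank 47. Lcp1 codes for an actin bundling protein of leukocytes, H2-D1 for a class I histocompatibility chain and Cltc for the clathrin heavy chain.

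Other genes of the pathway were listed by role, 133 in all, and 119 of them passed the low-count filter. Of these, 77 had a log2 fold change above 0, 5 were called higher (Ighg3, Ighg2b, Akt1, Ptpn6 and Spi1) and 1 lower (Crk), with a median of 0.15. Over the alternatives the number called higher ranged from 1 to 11 and the number called lower from 0 to 2. For comparison, 1.90% of all genes tested were called higher, 4.05% were called lower and 47.7% lay above 0. Among protein-coding genes of at least 20 CPM, 3.38% were called higher and 54.4% lay above 0.

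Constant genes of immunoglobulin, the part of the receptor that binds antigen, had the highest median, 0.72, with 9 of 9 above 0 and 2 called higher. Ighg3, the IgG3 heavy chain, rose from 43.4 ± 8.49 CPM (SD, n = 4) in Control to 115 ± 4.61 CPM (SD, n = 3) in MIZ1KO, a log2 fold change of 1.41 (adjusted p = 0.00198 in edgeR) that passed in all 20 alternatives that fitted it. Ighg2b rose by 0.86 on the log2 scale (adjusted p = 0.0218 in edgeR). Its call ended in 4 of 20 alternatives: without Control replicate 2 (adjusted p = 0.0723 in edgeR), without Control replicate 4 (0.0610), without MIZ1KO replicate 1 (0.131) and with the TEC share as a covariate, where the log2 fold change was 0.39 (0.527). Ighm, which with Cd79a and Cd79b makes the IgM receptor, measured 3346, 3407 and 3732 CPM in MIZ1KO and 2353, 2194, 2051 and 2174 CPM in Control. Its groups did not overlap, and its log2 fold change of 0.67, with a 95% interval of 0.11 to 1.23, did not pass in edgeR (adjusted p = 0.130). Igkc, the kappa light chain, had a log2 fold change of 0.72 (adjusted p = 0.115 in edgeR), also with no overlap between the groups. The summed level of 10 plasma cell markers, cells that secrete immunoglobulin, was 314 to 534 CPM in MIZ1KO and 369 to 737 CPM in Control, with Sdc1 at 0 to 2.50 CPM in all libraries.

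Inhibitors of receptor signalling had 16 of 20 tested genes above 0, 1 called higher, none lower and a median of 0.26. Ptpn6 codes for SHP-1, the phosphatase recruited by CD22, and measured 199, 183 and 206 CPM in MIZ1KO and 133, 124, 116 and 131 CPM in Control. The groups were well apart, and the log2 fold change was 0.64 ± 0.18 (SE) with an adjusted p of 0.0484 in edgeR. Its call ended in 14 of 21 alternatives. Csk, the kinase that holds Src-family kinases inactive, was at 0.59 (adjusted p = 0.0736 in edgeR), and Ceacam1, an inhibitory receptor, at 0.88 (adjusted p = 0.0964). Ptpn6, Csk and Ceacam1 were at 0.42, 0.046 and 1.01 with GC and length offsets. The ratio of Cd79a to Ptpn6 per length, 6.54 ± 0.458 (SD, n = 3) in MIZ1KO and 5.60 ± 0.643 (SD, n = 4) in Control, overlapped between the groups.

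The co-receptor and PI3K list was split evenly, with 8 of 16 above 0 and a median of 0.02. Akt1, a kinase activated through PI3K, was called higher at a log2 fold change of 0.80 (adjusted p = 0.0443 in edgeR). Its call ended in 14 of 21 alternatives, with a log2 fold change of 0.28 with GC and length offsets and 0.21 when the TEC share was a covariate. Cd81, a tetraspanin of the B cell surface, was at 0.56 (adjusted p = 0.129 in edgeR), and Pdpk1, the kinase that activates AKT, at -0.47 (adjusted p = 0.133).

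Among other adaptors, 7 of 14 tested genes were above 0 and the median was -0.04. Crk, an adaptor of the SH2 and SH3 domain type, was called lower, at a log2 fold change of -0.83 (adjusted p = 0.0492 in edgeR), and the call ended in 18 of 21 alternatives. Grb2, which links receptors to the Ras exchange factor SOS, was at 0.47 (adjusted p = 0.166) and Themis2 at 0.50 (adjusted p = 0.176). Paralogues of the 9 genes, such as other Src-family and Tec-family kinases, had 6 of 10 tested genes above 0 and none called; the genes of smallest p were Txk at -0.82 (adjusted p = 0.273 in edgeR), Lck at 0.27 (0.491) and Fgr at 0.39 (0.491).

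Downstream, the Rac, Ras and ERK arm had 15 of 21 genes above 0, none called and a median of 0.15. Its genes of smallest p were Map2k2, coding for the kinase MEK2 (0.77, adjusted p = 0.0953 in edgeR), Rac2, the Rac form of blood cells (0.61, 0.0980), and Hras (1.24, 0.113). Map2k2, Rac2 and Hras were at 0.18, 0.51 and 0.94 with GC and length offsets. The protein kinase C arm, which leads to NF-kB, had 6 of 15 above 0, none called and a median of -0.05. Ikbkb, the catalytic subunit of the NF-kB kinase, was at -0.84 (adjusted p = 0.0618 in edgeR) and at -0.050 with the TEC share as a covariate (adjusted p = 0.961 in edgeR). Prkcb, the main protein kinase C of this arm, was at 0.45 (adjusted p = 0.143 in edgeR) and Prkcd at 0.42 (0.243).

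Transcription factors of the B lineage, several of which are known to act at the Cd79a promoter, had 10 of 14 genes above 0, 1 called higher and a median of 0.27. Spi1 codes for PU.1 and measured 47.9, 48.0 and 54.2 CPM in MIZ1KO and 31.6, 28.0, 24.7 and 30.6 CPM in Control. The groups were apart, with a log2 fold change of 0.80 ± 0.21 (SE) and an adjusted p of 0.0360 in edgeR that ended in 10 of 21 alternatives. Spi1 is also expressed in myeloid cells, whose summed markers are given above and whose part in this result was not tested. Tcf3, which codes for E2A proteins, was at 0.86 (adjusted p = 0.0509 in edgeR) with overlapping groups, and Pax5 at 0.55 (adjusted p = 0.153). Spi1, Tcf3 and Pax5 were at 0.37, 0.23 and 0.52 with GC and length offsets.

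**Figure D4:**
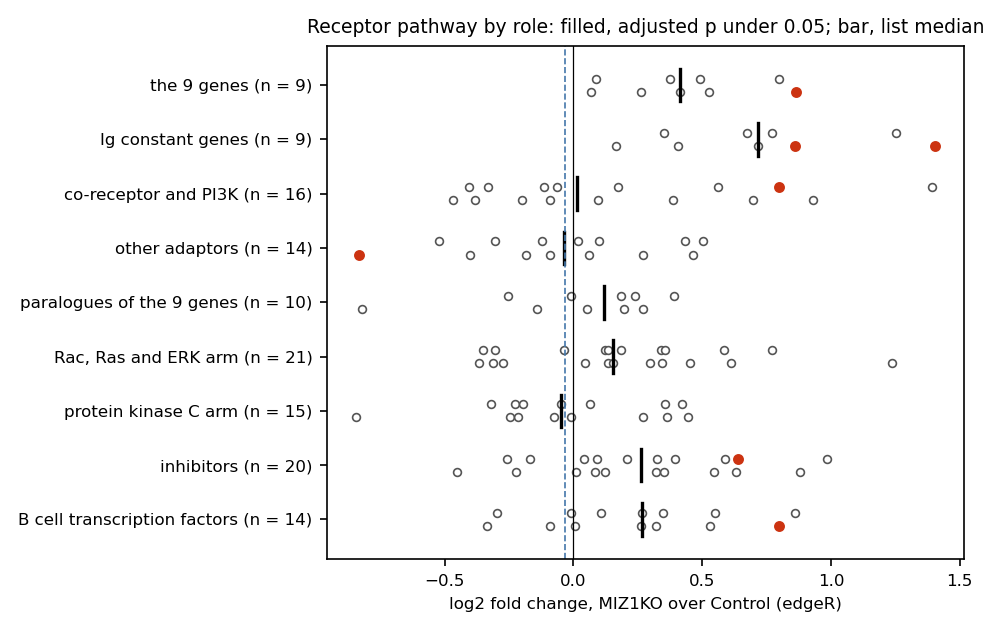
Log2 fold change, MIZ1KO over Control, of each tested gene by role in the pathway; filled red points have an adjusted p under 0.05 in edgeR, open points do not. Vertical bars are list medians, the black line is 0 and the dashed line the median of all genes tested; the medians of the 9 genes, 0.41, and of the immunoglobulin constant genes, 0.72, lie farthest to the right.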

How the data were processed

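The labels call the RNA polyA RNA of sorted splenic B cells; samples were grouped by genotype label, 3 MIZ1KO and 4 Control. The authors deposited expected counts (estimates of reads per gene, not always whole numbers and not normalized) and a table of log2 values named for variance stabilisation, used as an alternative. STAR 2.5.2, RSEM 1.3.0, DESeq2 1.18.1, R 3.4.3 and build GRCm38 are named per the submitters' processing notes, with no role or order; no source used here gives the annotation release or the strand setting. Here 6.61% of count values were not whole, and all were rounded. Genes were filtered with filterByExpr, scaled by TMM and tested with edgeR 4.0.16 (R 4.3.3, glmQLFit and glmQLFTest, robust, two-sided, Benjamini-Hochberg adjustment over 11618 genes, threshold 0.05). On simulated counts this fit called 5.97% of 67 genes changed 1.5-fold, 47.8% of 67 changed 2-fold and 97.0% of 66 changed 4-fold. It made 8 false calls. A gene of a modest fold change that did not pass is therefore not shown to be unchanged. CPM uses TMM-scaled library sizes, and log2 CPM a prior count of 2. Exonic lengths and coordinates are from GENCODE vM21 on GRCm38.

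The genes and lists were chosen with earlier results of these data known. Named were all 9 genes, each list's called genes and up to 3 with the smallest p, and the 5 genes most like each receptor chain. Alternatives were DESeq2 1.42.0, limma 3.58.1, other scalings, filters and covariates, a replicate block and leaving out each library.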

Additional observations from a re-analysis of the deposited data

How the results depend on the processing

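Of 189 values of the 9 genes under 21 alternatives, 170 kept their direction and side of the threshold, 7 lost the call (all Cd79a), 9 gained one (all Cd79b) and 3, all Vav1, changed sign: -0.15 with GC and length offsets, -0.016 without Control replicate 1 and -0.056 without MIZ1KO replicate 1, in a range of -0.056 to 0.27 over libraries left out. The number of the 9 genes called higher, 1 as reported, was 2 with DESeq2, with its size factors in edgeR, with GC and length offsets, with the deposited log2 values, with library totals, with no filter and without ribosomal RNA genes, 0 with the TEC share as a covariate, with a minimum fold change of 1.2 and with the replicate block, and 0 to 2 when a library was left out. Their median log2 fold change was 0.31 with GC and length offsets, 0.30 on the deposited log2 values and 0.37 to 0.65 when a library was left out. Pathway genes called higher, 5 as reported, numbered 10 with DESeq2, 3 with edgeR's legacy fit and with limma-voom, 2 with library totals, with a minimum fold change and with the replicate block, 1 with the TEC share and among protein-coding genes only, and 1 to 11 when a library was left out. The fit of protein-coding genes only did not include Ighg3 and Ighg2b, so their calls were not lost there but absent. Those called lower, 1 as reported, numbered 2 with DESeq2, 0 to 1 when a library was left out, and 0 with DESeq2 size factors, GC and length offsets, the TEC share, the deposited log2 values, the legacy fit, limma-voom, a minimum fold change, no filter, protein-coding genes only, the replicate block and without ribosomal RNA genes. With the TEC share as a covariate Cd81 was at -0.22, Grb2 at -0.054 and Lck at -0.16. The cause of these changes was not tested. Same-numbered samples correlated in their deviations from group means at -0.04, 0.25 and 0.40, and differently numbered samples at -0.42 to 0.40. So few values cannot decide whether samples of the same number were paired. With the replicate block Cd79a was at 0.86 with an adjusted p of 0.0733 in edgeR. Each of these genes had at least 160 counts in every library, and the parts of depth and of spread between libraries were not separated.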
